A study of Saccharomyces cerevisiae with 8 samples.

Results

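The ribosome biogenesis genes of *Saccharomyces cerevisiae* were followed here on DNA arrays of *ptc6* and *ptc1 ptc6* mutant cells. They were taken by name: an open reading frame (ORF) was a member when its standard symbol consists of 1 of 17 stems (UTP, NOP, RRP, NOC, RPF, NUG, NSA, RIX, MRD, ENP, BMS, TSR, SOF, BRX, EBP, KRR or LOC) and a number. This rule, which uses no measured value, gave 76 of the 6212 ORFs in the table. Of these, 18 are UTP genes and 58 are other members. *PTC1* and *PTC6* encode protein phosphatases of type 2C, and in each set of arrays RNA of a mutant was compared with RNA of the wild type (wt) strain on the same array, labelled with the dyes Cy3 and Cy5. All strains have the BY4741 background and were grown untreated at 28 °C in YPD rich medium to log phase. The single mutant carries *ptc6::kanMX4*, the double mutant carries *ptc1::NAT* and *ptc6::kanMX4*, and wt carries neither. A *ptc1* single mutant was not analysed here, so that an effect of *PTC1* alone and one of losing both genes cannot be told apart. Each mutant had 2 biological replicates, each hybridised on 2 arrays with the dyes exchanged, and the arrays of such a dye swap were averaged into 1 replicate (n = 2).

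Ribosomes are assembled in the nucleolus around a long precursor rRNA made by RNA polymerase I. The small subunit processome, built from the U3 small nucleolar RNA and the UTP proteins, forms on the 5′ part of that precursor and is needed for the cuts that release the 18S rRNA, while other factors fold, modify and cut the rRNA of the large subunit, and the exosome trims and degrades the pieces. In budding yeast the genes of these factors are known as a coregulated group that follows the growth rate and the TOR (target of rapamycin) pathway, together with the ribosomal protein genes.

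Of the 76 members, 61 had a value on 8 of 8 arrays, 8 had values on 1 to 7 arrays and 7 had none. The 7 were *UTP10*, *UTP14*, *UTP30*, *MRD1*, *NOP16*, *RRP5* and *TSR2*, and 3 of them are UTP genes. Among all ORFs, 514 (8.27%) had no value. Each array held values for 64 to 69 members and for 4050 to 5537 ORFs. The signal of the single channels was not used here, so no spot could be set against its background. The deleted genes were low on each array that measured them. *PTC6* had log2 ratios between -2.66 and -2.18 on 3 *ptc6* arrays and of -3.16 and -4.73 on 2 *ptc1 ptc6* arrays, and *PTC1* had values between -3.43 and -1.95 on the 4 *ptc1 ptc6* arrays. Arrays of *ptc6* replicate 2 correlated below 0 across ORFs with those of *ptc1 ptc6*, with Pearson's r down to -0.45. For the arrays of *ptc6* replicate 1 these correlations lay between -0.007 and 0.435. The replicate means of *ptc6* correlated with each other at r = 0.12 across 4824 ORFs, and those of *ptc1 ptc6* at r = 0.76 across 4596. The *ptc6* profile as a whole thus repeated poorly. The direction given by the labelled dyes was kept, since *PTC6* was low in *ptc6* replicate 2 too.

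Values below are log2 ratios of mutant over wt, on which a difference of 1 is 2-fold. Where 4 values follow each other, they are those of replicate 1 with the mutant in Cy3, replicate 1 with the mutant in Cy5, replicate 2 in Cy3 and replicate 2 in Cy5. In *ptc6* cells the members were slightly above wt, and in *ptc1 ptc6* cells they were below it. The member medians on the 4 *ptc6* arrays were 0.13, 0.05, 0.17 and 0.09, against -0.01, 0.01, 0.02 and 0.03 for all ORFs. On the 4 *ptc1 ptc6* arrays the member medians were -0.05, -0.45, -0.08 and -0.63, against -0.05, -0.08, -0.01 and -0.10 for all ORFs. The medians of *ptc6* lay above those of *ptc1 ptc6* without overlap. Within *ptc1 ptc6*, the arrays with the mutant in Cy5 were low in both replicates, while those with the mutant in Cy3 lay close to the median of all ORFs. Ratios of whole cultures were measured, so that fewer cells in a given state and less RNA per cell cannot be told apart.

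**Figure D1:**
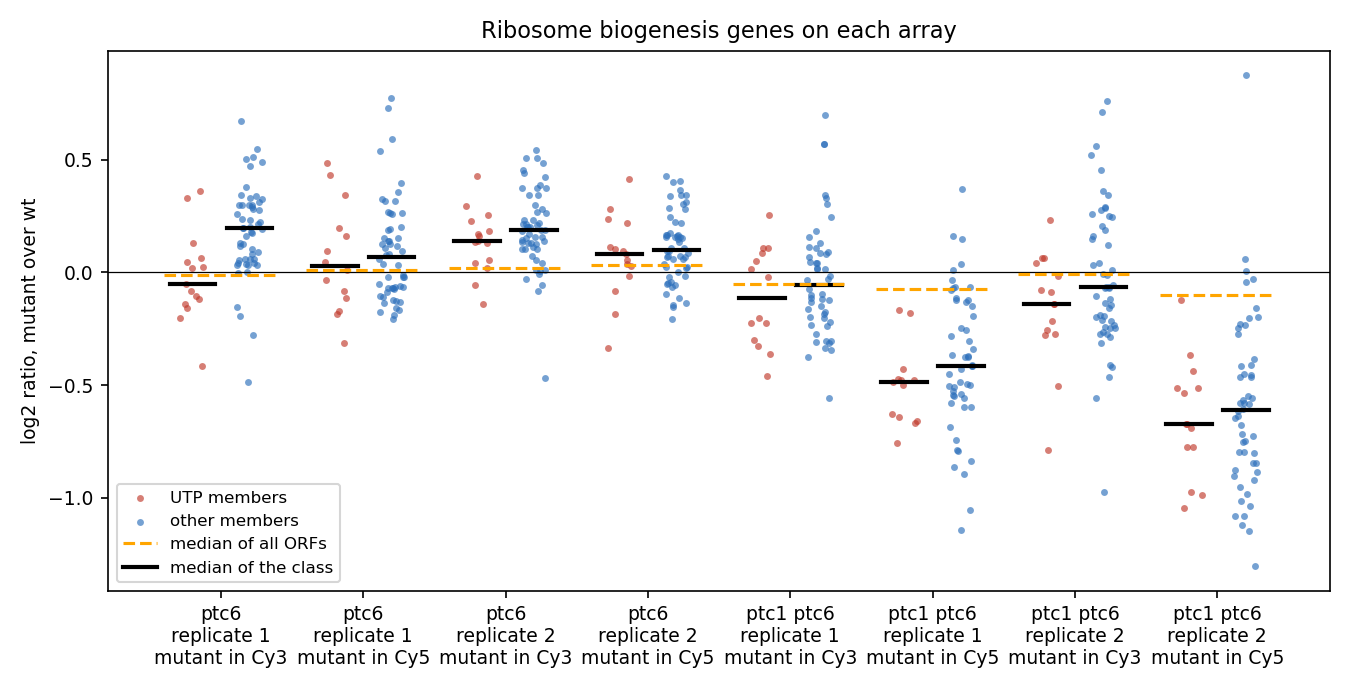
The log2 ratio of mutant over wt of each member on each of the 8 arrays, with the UTP genes and the other members drawn as separate points, the median of each class as a black line and that of all ORFs as a dashed line. The class medians lie above that of all ORFs on the *ptc6* arrays apart from the UTP genes on the first, and far below it on the *ptc1 ptc6* arrays with the mutant in Cy5, where the member medians were -0.45 and -0.63.

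In *ptc6* cells the median of the members was 0.12 in replicate 1 and 0.15 in replicate 2, and 55 and 63 of 69 members were above 0. The mean over the replicates had a median of 0.13 over the members and of 0.02 over all ORFs. No member reached 2-fold, while 0% of ORFs were past 2-fold higher and 0.0549% lower. None of the 69 members tested passed in limma at an adjusted p under 0.05 in either direction, nor did any of the 4824 ORFs tested (0%). The deleted *PTC6* itself, with a *ptc6* mean of -2.34 ± 0.11 (SD, n = 2), did not pass (limma adjusted p of 0.407). The fit shares 1 spread between the mutants, and the SD of *PTC6* in *ptc1 ptc6* was 1.11. Its p therefore does not measure how well a change in the members could be seen. With 2 replicates a mutant, the lack of calls is no evidence that the members were unchanged. At an unadjusted p under 0.05, 8 members were higher, which is 11.6% against 4.52% of all ORFs, and 0 were lower against 3.48%. Values above 0 on 4 of 4 arrays were held by 27 of 67 members (40.3%, against 13.8% of all ORFs), and values below 0 by *UTP20* and *UTP22* (2.99%, against 7.14% of all ORFs). Both replicates were above 0 in 52 of 69 members (75.4%, against 30.2% of all ORFs) and below 0 in 3 (4.35%, against 22.3%), which were *UTP20*, *UTP21* and *UTP22*.

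The 5 members with the highest *ptc6* means belong to the box C/D small nucleolar ribonucleoproteins (snoRNPs), which guide methylation of rRNA, and to the large subunit pathway. *NOP58* (YOR310C), a core protein of the box C/D snoRNPs, had 0.24, 0.59, 0.37 and 0.34. Its mean was 0.39 ± 0.04 (SD, n = 2), with a limma adjusted p of 0.602. Its core partner *NOP56* (YLR197W) had 0.06, 0.26, 0.51 and 0.40. For both genes the 4 *ptc6* arrays were above 0, and the replicates of *NOP58* lay closer together. *NOP7* (YGR103W), the yeast homologue of pescadillo, had a mean of 0.34 ± 0.06, *NOC2* (YOR206W), a factor for export of large subunit precursors, had 0.33 ± 0.18, and *LOC1* (YFR001W), which acts in large subunit assembly and in localisation of *ASH1* mRNA, had 0.31 ± 0.10 (SD, n = 2). The *ptc6* arrays of *NOP7* ran from 0.04 to 0.73 and those of *LOC1* from 0.08 to 0.67, so that a single array held the highest value of each by a wide margin. These 5 members shared the adjusted p of 0.602, and none passed.

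The *ptc6* replicates of some members disagreed more than any mean differed from 0. *NOP1* (YDL014W), the fibrillarin that methylates rRNA in box C/D snoRNPs, had 0.47 and 0.78 in replicate 1 and -0.47 and -0.21 in replicate 2. The dye swaps of each replicate gave the same sign and the replicates opposite signs. *NOP10*, of the pseudouridine-making box H/ACA snoRNPs, had -0.12 and 0.32 in the replicates, *NOP12* had -0.29 and 0.15, *NOP19* had 0.42 and -0.003, and *UTP21* had -0.42 and -0.01. Replicate 1 was 1 array for *NOP10*, with the mutant in Cy5, and 1 array for *UTP21*, with the mutant in Cy3. Within that orientation the replicates also differed, with -0.12 and 0.15 in Cy5 for *NOP10* and -0.42 and 0.16 in Cy3 for *UTP21*. Each of these values is 1 array. Over the 69 members the replicate means of *ptc6* correlated with r = 0.19 (Spearman's rho of 0.31) and over the 66 members of *ptc1 ptc6* with r = 0.64 (rho of 0.59), a description across genes of the same arrays.

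In *ptc1 ptc6* cells the median of the members was -0.22 in replicate 1 and -0.37 in replicate 2, and 57 of 67 and 64 of 68 members were below 0. The mean over the replicates had a median of -0.30 over 66 members, 61 of them below 0, and of -0.05 over all ORFs. In limma 14 of the 66 members tested fell (21.2%, against 8.49% of the 4596 ORFs tested) and 0 rose (5.64% of all ORFs). At an unadjusted p under 0.05, 39 members were lower (59.1%, against 20.9% of all ORFs) and 0 were higher (13.1% of all ORFs). Both replicates were below 0 in 55 of 66 members (83.3%, against 44.9% of all ORFs) and above 0 in *NOP1*, *NOP19* and *NOP58* (4.55%, against 31.2%). Of 62 members with 4 values, 27 were below 0 on 4 of 4 arrays (43.5%, against 29.9% of all ORFs). None reached 2-fold in the mean, which 1.68% of ORFs did as higher and 0.294% as lower. The 14 were *UTP13*, *UTP22* and *UTP25* among the UTP genes, *NOP14*, *RRP36*, *SOF1* and *TSR1* of the small subunit, and *BRX1*, *NOP2*, *NOP15*, *RIX7*, *RPF2*, *RRP1* and *RRP8* of the large subunit. Their means lay between -0.66 and -0.40 and their adjusted p-values between 0.027 and 0.0493. Leaving out a *ptc1 ptc6* replicate, which leaves that mutant with 1 sample, ended most of these calls. Without *ptc1 ptc6* replicate 2 no member passed, and without replicate 1 there were 3, of which *RIX7* alone was among the 14. The replicate means lay close together in some of the 14, with -0.50 in either replicate for *BRX1*, -0.62 and -0.64 for *NOP14*, and -0.50 and -0.54 for *NOP15*. For *NOP14* and *NOP15* these means average over dye orientations that differed. In others they lay further apart, with -0.41 and -0.91 for *RIX7* and -0.54 and -0.32 for *UTP13*. With each array centred on its own median, 5 members passed, namely *BRX1*, *NOP14*, *NOP15*, *RPF2* and *TSR1*.

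**Figure D2:**
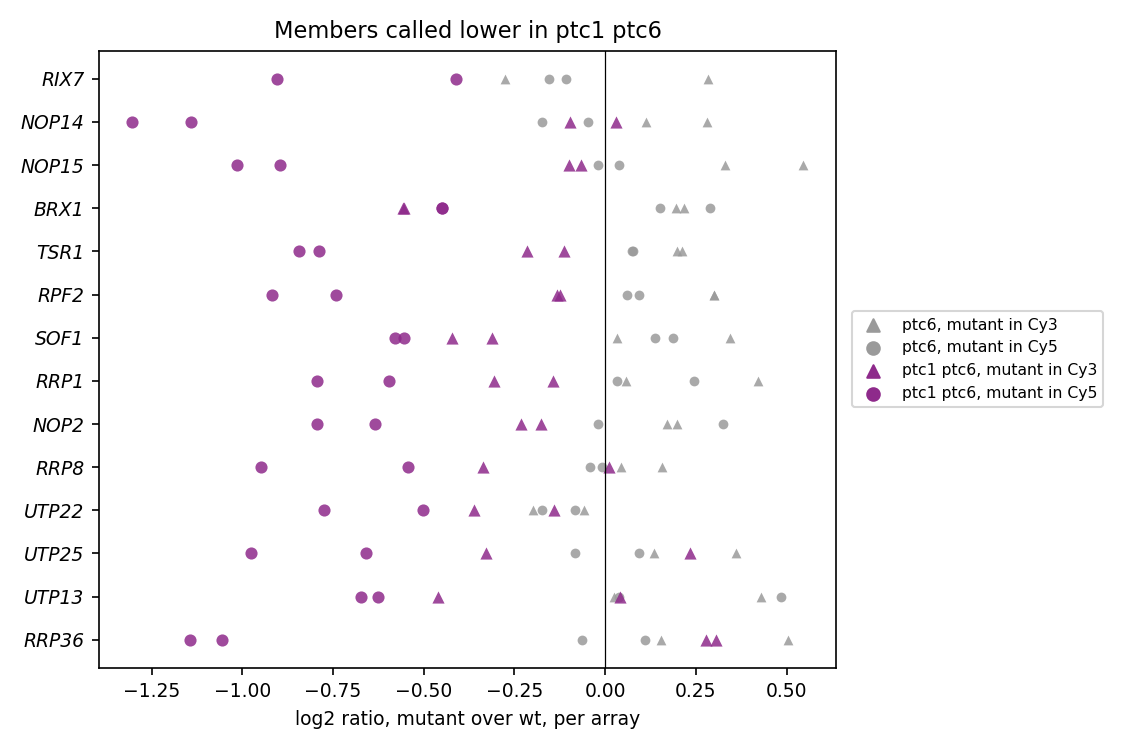
The log2 ratio of mutant over wt on each array for the 14 members that fell in *ptc1 ptc6*, with triangles for the mutant in Cy3, circles for the mutant in Cy5, purple for *ptc1 ptc6* and grey for *ptc6*. The 4 *ptc1 ptc6* points of *BRX1* lie between -0.56 and -0.45, those of *NOP14* and *RRP36* fall apart by dye, and *RIX7* has 2 of 4.

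Among the UTP genes, the UtpA and UtpB subcomplexes and the proteins outside them all had medians below 0 in *ptc1 ptc6*. Of 14 UTP genes tested in *ptc1 ptc6*, 14 had a mean below 0 and 3 passed (21.4%), and of 52 other members 47 were below 0 and 11 passed (21.2%). Over all ORFs 57.4% of means were below 0 and 8.49% passed as lower. At an unadjusted p under 0.05, 12 of the 14 UTP genes (85.7%) and 27 of the 52 others (51.9%) were lower, against 20.9% of all ORFs, and the difference between the classes was not tested. UtpA, which binds the nascent precursor rRNA first, had medians of -0.21 and -0.46 in the replicates over 5 genes, of which 0 passed. UtpB had -0.28 and -0.40 over 3 and 4 genes, and *UTP13* passed. The 6 UTP genes outside these had -0.37 and -0.38, each of the 6 was below 0 in both replicates, and *UTP22* and *UTP25* passed.

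*UTP22* (YGR090W), whose product works with Rrp7 in the UtpC subcomplex, had -0.36, -0.50, -0.14 and -0.77 in *ptc1 ptc6* and -0.20, -0.17, -0.06 and -0.08 in *ptc6*. It was below 0 on 8 of 8 arrays, and the mutants overlapped through 1 *ptc1 ptc6* array. The *ptc1 ptc6* mean was -0.44 ± 0.02 (SD, n = 2, limma SE of 0.10, adjusted p of 0.04). *UTP20* (YBL004W), a large processome protein, was the other UTP gene below 0 on 8 of 8 arrays, with -0.02, -0.64, -0.14 and -0.69 in *ptc1 ptc6* and -0.16, -0.32, -0.14 and -0.34 in *ptc6*. In both mutants its values with the mutant in Cy5 were the lower ones. Its *ptc6* mean of -0.24 was the lowest of any member, and its *ptc1 ptc6* mean of -0.37 ± 0.06 did not pass in limma (adjusted p of 0.0559).

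*UTP25* (YIL091C), a protein with similarity to DEAD-box helicases, had -0.33, -0.66, 0.23 and -0.98 in *ptc1 ptc6*, and *UTP13* (YLR222C), a WD-repeat protein of UtpB, had -0.46, -0.63, 0.04 and -0.67. In each of them 3 arrays were low and replicate 2 in Cy3 was above 0. Both passed, with means of -0.43 ± 0.09 and -0.43 ± 0.16 (SD, n = 2) and limma adjusted p-values of 0.0428 and 0.0493. *UTP7*, *UTP11*, *UTP15* and *UTP23* were below 0 on 4 of 4 *ptc1 ptc6* arrays with means between -0.35 and -0.34 and missed the threshold (adjusted p of 0.0709 to 0.0927). At the upper end, *UTP21* and *UTP5* had means of -0.09 and -0.06, with 1 or more arrays above 0 in each, and *UTP4* had -0.31, made of 0.02 and -0.02 in Cy3 and of -0.48 and -0.78 in Cy5.

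The UTP genes were set against the other members in each replicate. In *ptc6* the UTP median minus that of the others was -0.10 in replicate 1 and -0.0005 in replicate 2. In *ptc1 ptc6* it was -0.11 and -0.06. On single arrays it was -0.25, -0.04, -0.05 and -0.02 in *ptc6* and -0.06, -0.08, -0.07 and -0.06 in *ptc1 ptc6*. The UTP median was thus the lower one on 8 of 8 arrays, and the difference stood out on 1 of them, *ptc6* replicate 1 in Cy3. Where the *ptc6* arrays of a dye were first averaged for each gene, it was -0.15 in Cy3 and 0.04 in Cy5, although it was below 0 on each of the Cy5 arrays. With 2 replicates an exact test against 0 cannot go below 0.5 (two-sided), and genes are not replicates, so no test was made. The median of *ptc1 ptc6* minus *ptc6* was -0.42 over 14 UTP genes and -0.39 over 52 others.

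Among the other factors of the small subunit, 4 of 16 tested passed in *ptc1 ptc6* (25%, against 8.49% of all ORFs), with medians of -0.26 and -0.35 in the replicates, where all ORFs had -0.05 in each. *SOF1* (YLL011W), a WD-repeat protein of the processome, had -0.31, -0.56, -0.42 and -0.58 in *ptc1 ptc6* and 0.03, 0.19, 0.34 and 0.14 in *ptc6*. All *ptc1 ptc6* arrays lay below all *ptc6* arrays, in either dye. The mean was -0.47 ± 0.05 (SD, n = 2, limma SE of 0.10, adjusted p of 0.0379). *TSR1* (YDL060W), a GTPase-like protein of late precursors, had -0.11, -0.79, -0.22 and -0.84 with a mean of -0.49 ± 0.06 and an adjusted p of 0.0335. *NOP14* (YDL148C), a processome protein, had the second lowest mean of all members, -0.63 ± 0.01, from -0.10 and 0.03 in Cy3 and -1.14 and -1.30 in Cy5. *RRP36*, an early processing factor, likewise had 0.31 and 0.28 in Cy3 and -1.06 and -1.15 in Cy5. Both genes were low with the mutant in Cy5 alone, and their limma adjusted p-values of 0.027 and 0.048 come from the means over both dyes. *RRP36* falls outside the rule for named genes and was added after its values were seen.

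The large subunit held 7 of the 14, of 23 tested (30.4%, against 8.49% of all ORFs), with medians of -0.22 and -0.41 in the replicates. *BRX1* (YOL077C), a Brix-domain assembly factor, was the member with the least spread between *ptc1 ptc6* replicates, at -0.56, -0.45, -0.56 and -0.45 in *ptc1 ptc6* and at 0.19, 0.15, 0.22 and 0.29 in *ptc6*. The mutants did not overlap in either dye. The *ptc1 ptc6* mean was -0.50 ± 0.001 (SD, n = 2, limma SE of 0.10, adjusted p of 0.0322), and *BRX1* was the sole member that passed as lower on the Cy3 arrays alone. *RPF2* (YKR081C), a Brix-domain protein that brings in the 5S particle, had -0.12, -0.74, -0.13 and -0.92, and *NOP15* (YNL110C), an RNA-binding protein, had -0.10, -0.90, -0.07 and -1.02. Both were below 0 on 4 of 4 arrays and lower in Cy5, with means of -0.48 ± 0.07 and -0.52 ± 0.03 and adjusted p-values of 0.035 and 0.0317. *RIX7* (YLL034C), an AAA ATPase of large subunit maturation, had the lowest mean of all, -0.66 ± 0.35, but was measured in *ptc1 ptc6* with the mutant in Cy5 alone, at -0.41 and -0.91. Its rank thus sets a Cy5 mean against means over both dyes. In Cy5 alone the member median was -0.56, and other members were lower than *RIX7*, among them *NOP14* (-1.22), *RRP36* (-1.1) and *NOP15* (-0.96). *NOP12* (YOL041C), an RNA-binding protein, was the member with the lowest value in Cy3, -0.97, and with values of -0.30, -0.12 and -0.46 on the other arrays it did not pass (adjusted p of 0.107).

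The remaining 3 large subunit members that passed fall outside the rule for named genes and were added after their values were seen. *NOP2* and *RRP8* encode methyltransferases of the 25S rRNA and *RRP1* encodes a nucleolar assembly protein. *NOP2* had -0.18, -0.79, -0.23 and -0.64, *RRP1* had -0.31, -0.60, -0.15 and -0.80, and *RRP8* had -0.34, -0.54, 0.01 and -0.95. Their means were between -0.46 and -0.45, with adjusted p-values of 0.0406, 0.0466 and 0.0372 in limma.

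Of the snoRNP members 0 of 4 and of the exosome members 0 of 7 tested in *ptc1 ptc6* passed. Over all ORFs 8.49% passed as lower and 5.64% as higher, so groups this small are not set apart by having no call. *NOP1* was the member with the highest *ptc1 ptc6* mean, 0.45 ± 0.31 (SD, n = 2), from 0.09, 0.37, 0.45 and 0.88, and it was the sole member above 0 on 4 of 4 of these arrays (1.61% of members, against 15.6% of all ORFs). Its limma adjusted p was 0.226. *NOP58* and *NOP56*, its partners in the box C/D particle, had means of 0.05 and -0.09, and *RRP9*, the protein specific to the U3 snoRNP, had -0.37 (adjusted p of 0.0772). The 7 exosome members (*RRP4*, *RRP6*, *RRP40*, *RRP42*, *RRP43*, *RRP45* and *RRP46*) had means between -0.25 and -0.11 in *ptc1 ptc6* and between 0.03 and 0.21 in *ptc6*. *RRP43* (YCR035C), a core subunit, had -0.35, -0.26, -0.19 and -0.20 in *ptc1 ptc6* and 0.04, 0.11, 0.10 and 0.09 in *ptc6*, without overlap. Outside these groups, *NOP19* of the small subunit and *LOC1* of the large subunit had the next highest *ptc1 ptc6* means, 0.12 and 0.14, with limma adjusted p-values of 0.548 and 0.454.

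**Figure D3:**
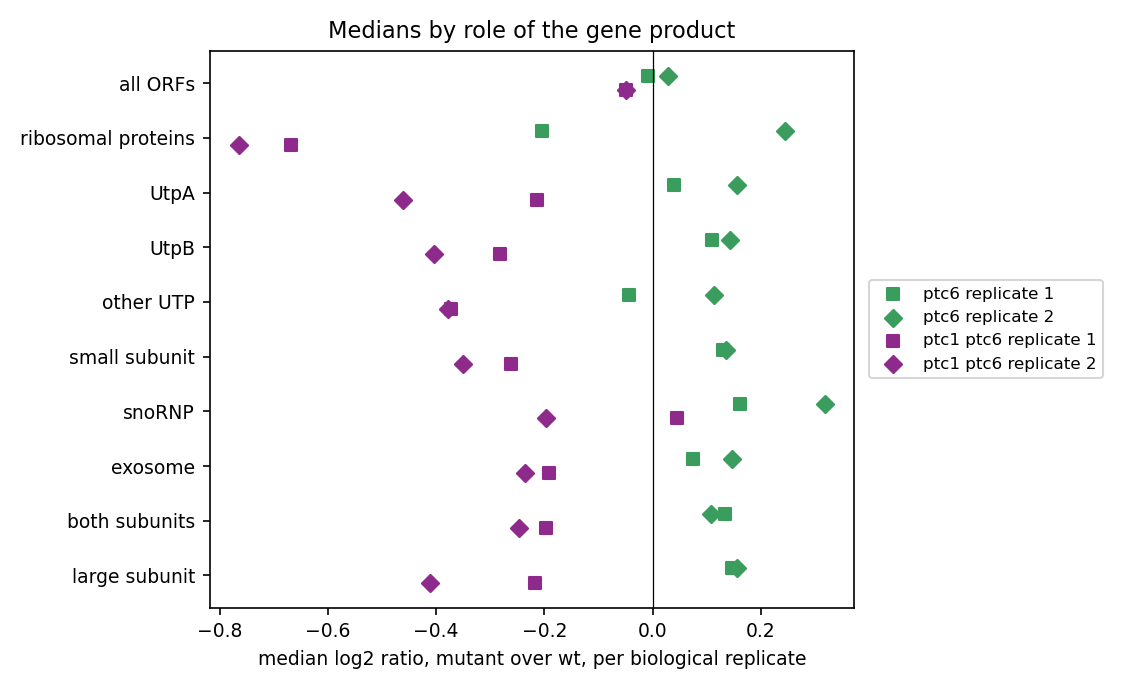
Median log2 ratio of mutant over wt in each biological replicate, for the members grouped by the role of their product, for all ORFs and for the cytosolic ribosomal protein genes, with squares for replicate 1 and diamonds for replicate 2. The *ptc1 ptc6* medians of each role lie below its *ptc6* medians, and the ribosomal protein genes have *ptc6* medians of -0.20 and 0.25.

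The mutants were then compared with each other. The difference of *ptc1 ptc6* minus *ptc6* had a median of -0.40 over 66 members, 64 of them below 0, and of -0.09 over 4361 ORFs. In limma 0 of the 66 members passed in this difference (0.161% of all ORFs passed as higher and 0.0459% as lower), and the lowest adjusted p among them was 0.0966. This count depended on the fit. With values on 4 of 4 arrays required 15 members passed, and 15 passed with a random replicate block. In that block fit the estimated correlation within a replicate was -0.08. The arrays of a dye swap thus entered as if independent, though they belong to 1 replicate. With the replicate number as a fixed block 2 passed, and 2 with the mutant in Cy5 alone. Shares of all ORFs were not counted for these fits. In the main fit at an unadjusted p under 0.05, 36 members were lower (54.5%, against 16.5% of all ORFs) and 0 were higher (7.82% of all ORFs). All 4 *ptc1 ptc6* arrays lay below all 4 *ptc6* arrays in 24 of 61 members (39.3%, against 16.9% of all ORFs) and above them in 0 (5.36%). Both replicate means of *ptc1 ptc6* lay below both of *ptc6* in 61 of 66 members (92.4%, against 39.5% of all ORFs) and above them in 0 (20.2%). With 2 replicates against 2, an exact permutation test cannot go below 0.333. *NOP15* (-0.74, limma SE of 0.15), *BRX1* (-0.72, SE of 0.14) and *UTP13* (-0.67, SE of 0.15) had the lowest differences, and *UTP21* (0.12, SE of 0.19) and *NOP1* (0.31, SE of 0.33) were the members above 0. Without 1 of the *ptc6* replicates these fell to -0.08 and -0.18. The sources used here do not say whether the same wt RNA served for both mutants.

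**Figure D4:**
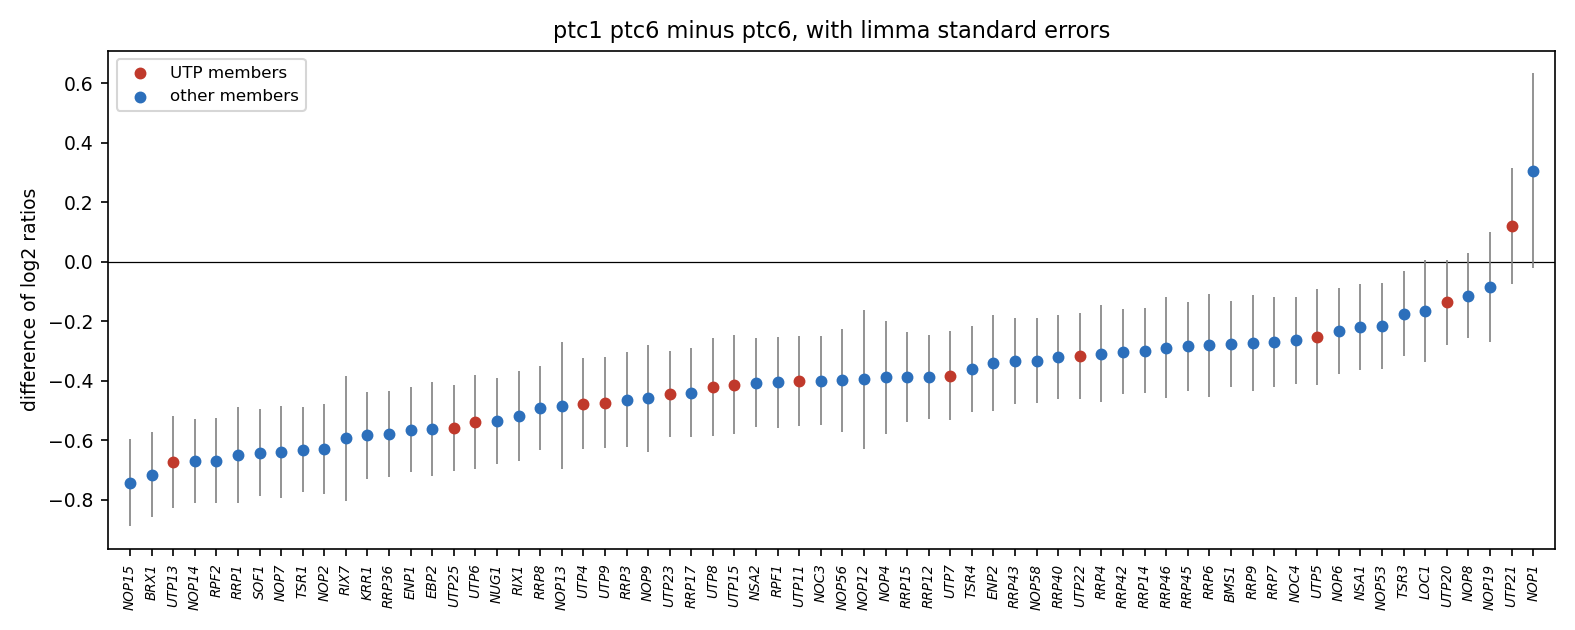
The difference of the log2 ratios, *ptc1 ptc6* minus *ptc6*, for the 66 members tested in both mutants, in ranked order and with bars of 1 limma standard error. The differences run from -0.74 in *NOP15* to 0.31 in *NOP1*, 64 lie below 0, and the UTP genes are spread along the order.

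The dye orientation divided the members of *ptc1 ptc6* more than the replicates did. Over the 62 members with 4 values, the mean with the mutant in Cy3 had a median of -0.08 (37 below 0) and that with the mutant in Cy5 a median of -0.56 (61 below 0), against -0.04 and -0.12 for all ORFs. Both arrays in Cy5 lay below both in Cy3 in 50 of 62 members (80.6%, against 31.7% of all ORFs), and above them in *BRX1*, *NOC4* and *RRP42* (25.2% of all ORFs). A limma test of Cy5 minus Cy3 across the 2 dye swaps, added after the data had been seen, called 16 of 62 members lower (25.8%, against 4.89% of all ORFs) and 0 higher (0.748%). The difference repeated over the replicates, with r = 0.80 (rho of 0.76) across the 62 members and r = 0.63 (rho of 0.62) across all ORFs. Cy5 minus Cy3 in *ptc6* and in *ptc1 ptc6* correlated with r = 0.71 across 61 members and r = 0.62 across 3436 ORFs. These are descriptions across genes, of arrays that may share wt RNA. In *ptc6* the median of Cy5 minus Cy3 was -0.07 and 0 of 67 members were called (0% of all ORFs), and 23 of 67 had both Cy5 arrays below both Cy3 arrays (34.3%, against 13% of all ORFs) and 5 above them (7.46%, against 15.7%).

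*RRP14* (YKL082C), which acts in the pathways of both subunits, had the largest difference by dye. Its values were 0.70, -0.87, 0.76 and -1.04 in *ptc1 ptc6* and 0.31, 0.13, 0.37 and -0.06 in *ptc6*. On the Cy3 arrays of *ptc1 ptc6* it was above wt and on the Cy5 arrays below it, in both replicates, and its mean of -0.11 averages over both orientations. Cy5 minus Cy3 was -1.68 (limma SE of 0.17, adjusted p of 0.00516). *NOP53* (YPL146C), which recruits the exosome to large subunit precursors, had 0.57, -0.84, 0.71 and -0.80, with a difference of -1.46 (adjusted p of 0.0108), and *RRP36* had -1.39 (adjusted p of 0.0115). *RRP14* and *NOP53* were named after their values were seen, and with the mutant in Cy3 alone they were the members that passed as higher.

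By role, Cy5 minus Cy3 in *ptc1 ptc6* had medians of -0.55 in UtpA, -0.44 in UtpB, -0.35 in the other UTP genes, -0.58 in the small subunit and -0.55 in the large subunit. In the exosome it was 0.03 over 7 genes, of which *RRP45* alone had both Cy5 arrays below both Cy3 arrays. The cytosolic ribosomal protein genes, which are no members, had a median of 0.12, with 1 of 115 called lower. What made the orientations differ was not tested. *BRX1*, *SOF1*, *NUG1*, *RRP43*, *UTP15* and *UTP23* were each below 0 on 4 of 4 *ptc1 ptc6* arrays with Cy5 minus Cy3 between -0.24 and 0.11. The same held for *ENP1* (-0.24), *NOC3* (-0.20), *RRP4* (-0.17), *TSR4* (-0.21) and *UTP11* (-0.24). Of all ORFs 29.9% were below 0 on 4 of 4 of these arrays, and the share also within that range was not counted. *NUG1*, *RRP43*, *ENP1*, *NOC3*, *RRP4* and *TSR4* were named, and the range was set, after their values were seen. *NUG1*, which encodes a nucleolar GTPase of the large subunit, had -0.20, -0.25, -0.21 and -0.41 in *ptc1 ptc6* and 0.20, 0.36, 0.23 and 0.28 in *ptc6*, without overlap.

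**Figure D5:**
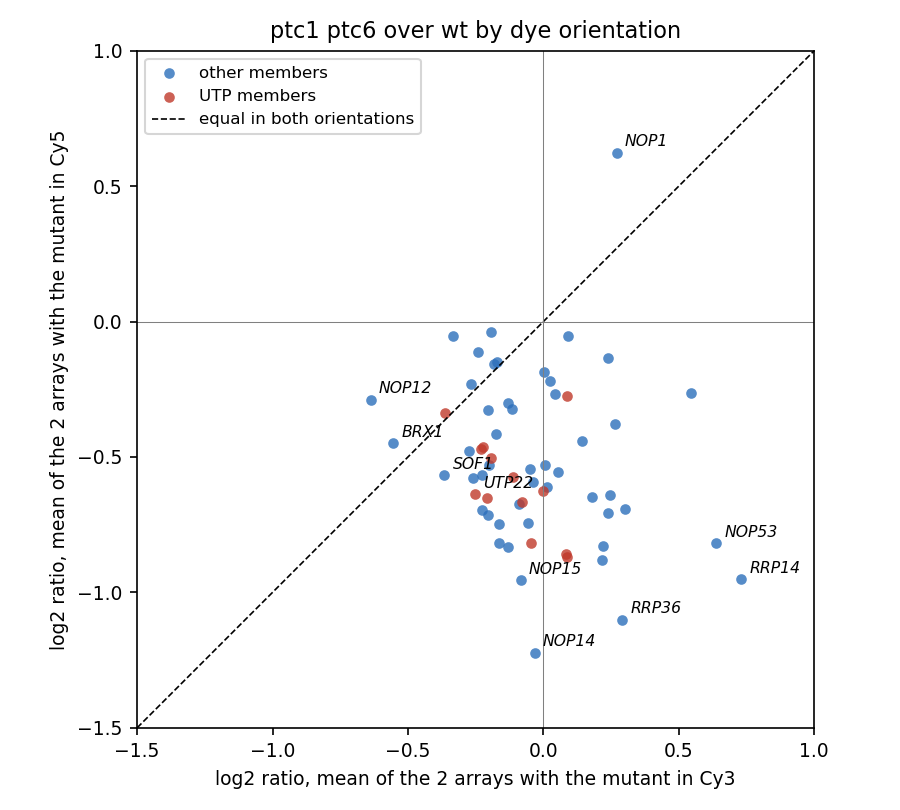
For each member, the mean log2 ratio of *ptc1 ptc6* over wt on the 2 arrays with the mutant in Cy3 against that on the 2 arrays with the mutant in Cy5, with a dashed line where both are equal. Most members lie below the line, *RRP14*, *NOP53* and *RRP36* far below it, and *BRX1*, *SOF1* and *NOP12* lie near or above it.

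Other genes of the pathway, taken from a list of 145 symbols of which 142 are in the table, were counted in the same way. In *ptc6* their median was 0.12 and 0 of 128 passed. In *ptc1 ptc6* their median was -0.28, 121 of 128 were below 0, and 19 passed as lower (14.8%) and 0 as higher. Over all ORFs 57.4% of means were below 0, 8.49% passed as lower and 5.64% as higher. The 19 were 10 of 43 large subunit factors, 5 of 31 processome factors (*FCF2*, *IMP4*, *KRE33*, *NAN1* and *SAS10*), 2 of 10 exosome factors (*MPP6* and *MTR4*) and 2 of 13 subunits of RNA polymerase III or shared with it (*RPC25* and *RPC31*). None passed among 12 genes of RNA polymerase I, 9 of snoRNPs and 10 regulators. In the difference between the mutants 0 of 123 passed. Beside them, the cytosolic ribosomal protein genes had a median of -0.71 in *ptc1 ptc6*, with 102 of 119 called lower (85.7%), and medians of -0.20 and 0.25 in the *ptc6* replicates, where the members had 0.12 and 0.15.

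Members that neighbour each other on a chromosome were few. *UTP9* and *RIX1* lie in tandem on chromosome VIII, with *ptc1 ptc6* means of -0.39 and -0.42, and *RRP15* and *NOC4* are convergent on chromosome XVI, with means of -0.20 and -0.18. In both pairs the neighbours had the same sign in each mutant, as most members did. Means were above 0 in 91.3% of members in *ptc6* and below 0 in 92.4% in *ptc1 ptc6*.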

How the data were processed

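Total RNA of log phase cultures was labelled by the indirect dUTP method and hybridised to 2-colour arrays of amplified yeast ORFs. According to the methods and the labels, spots smaller than 120 micrometres or dimmer than 150 units were left out and the ratios were pre-processed with GEPAS; the normalization within arrays was not given in the sources used here. The authors deposited 1 table of log2 ratios, with a line for each ORF and a column for each array. The table states neither the base of the logarithm, nor its direction, nor the centring. Base 2 was taken since the study's methods count changes of 2-fold and speak of log2, and mutant over wt because the deleted genes lay far below 0 in both dye orientations. The number of arrays limits the precision.

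Symbols came from the RefSeq gene table of assembly R64 by systematic name (5662 of 6212 ORFs matched). The table of ratios names no build, so no positions are given. No sequences were used here, and a planned search of promoters for motifs was not run. Groups, dyes and replicates were taken from the labels and the series' design. Each dye swap was reduced to its mean. These 4 values per ORF entered 1 linear model with a mean for each mutant and a shared spread (limma 3.58.1, R 4.3.3, moderated by eBayes, two-sided), and p-values were adjusted by Benjamini-Hochberg over all ORFs tested with a threshold of 0.05, after the script had been tested on simulated data. An ORF was tested in a mutant when 2 or more of the 4 arrays measured it and neither replicate was empty. Past 2-fold meant a mean of at least 1 or at most -1. "Cy5 minus Cy3" is the array with the mutant in Cy5 minus its dye swap, fitted in the same way.

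Genes were named by rule: in UTP genes and in the others, the 6 with the largest absolute *ptc1 ptc6* mean and 1 sign on 4 of 4 arrays and the 3 lowest and 3 highest *ptc1 ptc6* means; over all members, the 5 largest *ptc6* means of 1 sign in both replicates and the 5 largest differences between *ptc6* replicates; members past 2-fold or called in the difference; and those without values. Members, role groups and the pathway list were chosen with earlier results of these data known, so no set test was made and no p is given for a list. Alternatives were median centring, values on 4 of 4 arrays, 1 dye alone, leaving out each replicate, the replicate number as a block, a dye term, each mutant alone and a robust prior.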

Additional observations from a re-analysis of the deposited data

Results flagged for a closer look

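In 3 of 55 groups of 4 arrays that were searched, 1 array lay far from the other 3; chance gives about 1 in 20 groups, which is 2.75 here. The UTP median minus that of the other members was -0.25 on the *ptc6* array of replicate 1 with the mutant in Cy3 and between -0.05 and -0.02 on the other *ptc6* arrays. *NOP56* was at -0.38 on the *ptc1 ptc6* array of replicate 2 with the mutant in Cy5 and between -0.01 and 0.02 on the others. The *ptc1 ptc6* array of replicate 1 with the mutant in Cy3 held values for 4050 ORFs, while the others of that set held 4620 to 4710.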

How the results depend on the processing

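The cause of the changes given here was not tested. In *ptc6* 0 members passed under every alternative run. In the main fit the deleted *PTC6* did not pass either, with a spread shared with *ptc1 ptc6*. Shares of all ORFs were counted for the main fit and not for the alternatives, so the counts by setting cannot be set against them. In *ptc1 ptc6*, against 14 of 66, there were 5 of 66 with arrays centred on their median and 26 of 62 with values on 4 of 4 arrays. With the mutant in Cy3 only there were 3 of 64 (2 of them higher), and in Cy5 only 41 of 64. Leaving out 1 replicate gave 0 to 13, with 3 without *ptc1 ptc6* replicate 1 and 0 without replicate 2; this leaves that mutant with 1 sample, assumed to vary like the other mutant. *BRX1*, *NOP14*, *NOP15*, *RPF2* and *TSR1* passed under every setting other than single dyes and left-out replicates. In Cy3 alone *BRX1* still passed as lower, while *NOP14* (-0.0325), *NOP15* (-0.084), *RPF2* (-0.129) and *TSR1* (-0.165) did not pass. In the difference between the mutants, against 0, there were 15 with values on 4 of 4 arrays and 2 in Cy5 only, and 0 under the others that left the replicate numbers out.

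The replicate numbers do not state a pairing, and the deviations of same-numbered replicates correlated at -0.21 across 4361 ORFs. With the replicate number as a fixed block, 14 members passed in *ptc1 ptc6* and 2 in the difference. With numbers crossed, chosen after seeing the data, the counts were 30 (1 higher) and 15. With a random replicate block over 8 arrays they were 29 and 15, and with a dye term added 26 and 13. The estimated correlation within a replicate was -0.08 in the first of these fits and 0.25 in the second. At -0.08 the arrays of a dye swap entered as if independent, so the first counts do not rest on 2 replicates a mutant.

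The member median in *ptc6* (0.13) was 0.176 in Cy3, 0.0813 in Cy5 and 0.119 to 0.147 with a replicate left out. In *ptc1 ptc6* (-0.30) it was -0.082 in Cy3, -0.56 in Cy5 and -0.369 to -0.224 with a replicate left out. The UTP minus other median was -0.146 in Cy3 and 0.0393 in Cy5 in *ptc6* and -0.0463 in Cy3 in *ptc1 ptc6*, and with a replicate left out it ran from -0.095 to -0.0005 and from -0.108 to -0.062.

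In *ptc1 ptc6*, 21 of 64 members had the other sign in Cy3 alone and 3 of 64 in Cy5 alone. Of the genes with values in the text these were *NOP53* (0.639), *RRP14* (0.73), *RRP36* (0.291), *RRP15* (0.247), *UTP9* (0.0875), *UTP21* (0.087), *UTP4* (0.0005) and *NOP56* (0.0035) in Cy3, and *LOC1* (-0.263) and *NOP58* (-0.133) in Cy5. With a *ptc1 ptc6* replicate left out, *LOC1* ran from -0.021 to 0.304, *NOP56* from -0.197 to 0.015, *UTP21* from -0.223 to 0.037 and *UTP5* from -0.199 to 0.088. With a *ptc6* replicate left out, *NOP1* ran from -0.339 to 0.623, *NOP10* from -0.123 to 0.319, *NOP12* from -0.287 to 0.152 and *NOP19* from -0.0025 to 0.418 in *ptc6*. In the difference 9 of 64 members had the other sign in Cy3 alone, among them *UTP20* (0.069), and with a replicate left out *NOP1* ran from -0.176 to 0.786 and *UTP21* from -0.0805 to 0.322. Requiring 1 value in each replicate gave the same genes by construction.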
